A study of Mus musculus with 10 samples.

Results

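The glucocorticoid receptor and 8 genes that activate its ligand or respond to it were followed in inguinal white adipose tissue (iWAT) of male C57BL/6 mice. The 9 genes were chosen by name, as the receptor Nr3c1, the enzyme Hsd11b1 and the response genes Fkbp5, Tsc22d3, Zbtb16, Sgk1, Dusp1, Mt1 and Mt2, out of 51826 genes listed for each mouse, of which 33120 have an exon length. All 9 were found once, and all 9 passed the filter on low counts in both generations. The mice formed 4 groups, with 1 library per mouse. F0 males ate a control diet (CD, n = 2) or a low-protein diet (LPD, n = 2) from weaning and were sampled at 10–12 weeks of age. F1 males were the offspring of CD-fed fathers (n = 3) or of LPD-fed fathers (pLPD offspring, n = 3) and were sampled at 5 weeks of age. All mothers and all F1 mice themselves ate CD, and the forebears of both generations had also been kept on CD. The F1 mice of a group came from different mothers. Which father each F1 mouse came from is not given in the sources used here, and the tests treat the F1 mice as independent. The comparisons ask whether a father's diet, or a mouse's own diet, goes with a different level of these genes in fat.

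Glucocorticoids, mainly corticosterone in mice, enter the cell and bind the glucocorticoid receptor, which is held by chaperones until the hormone arrives and then moves to the nucleus to raise or lower the transcription of its targets. In fat the hormone is also made locally from an inactive precursor, and it is known there for its part in fat cell differentiation, lipid storage and release, and restraint of inflammation. Its level in blood follows the day, stress and feeding, and several targets are transcribed more within an hour or so of a rise.

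Exons held 6351075 to 10044546 reads in each mouse. Counts were expressed per 1000000 reads of the normalized library (CPM). Before normalization, a count of 3 reads stood for 0.299 to 0.472 per 1000000 exon reads, a floor for counting error alone. Introns held 40.7% to 48.4% of the reads on protein-coding genes in pLPD offspring and 36.0% to 37.9% in the other 7 mice. Adipocyte markers were abundant in all 10 mice, and the sum over 6 of them lay between 10490 and 18064 CPM. The sum over 6 skeletal muscle markers was 1321 to 1963 CPM in CD-fed F0 mice, 691 to 943 CPM in LPD-fed F0 mice and 38.6 to 167 CPM in F1 mice. The 4 epithelial markers gave sums of 8.10 to 11.8 CPM for CD fathers' offspring and 0.153 to 3.25 CPM for pLPD offspring, where Krt8, Krt18 and Krt14 were at 0 in at least 1 mouse. For 4 macrophage markers these sums were 430 to 483 CPM and 289 to 344 CPM. The sum over 4 fibroblast and progenitor markers was 6255 to 11236 CPM in CD fathers' offspring, 4380 to 5237 CPM in pLPD offspring and 1934 to 2239 CPM in F0 mice. Most of it in F1 was Col1a1, at 5286 to 10353 CPM in CD fathers' offspring and 3743 to 4527 CPM in pLPD offspring. In F0 mice Col1a1 was at 661 to 1194 CPM. Dcn was at 413 to 574 CPM in CD fathers' offspring and higher, at 813 to 971 CPM, in CD-fed F0 mice. Pdgfra was at 121 to 135 and 140 to 169 CPM in these groups, and Pi16 overlapped. The part of these cells in the levels below was not tested. In a whole fat pad, fewer cells of a type and less RNA per cell cannot be told apart.

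Per kilobase of annotated exon, Hsd11b1 had the highest level of the 9 genes in every group. Hsd11b1 encodes 11-beta-hydroxysteroid dehydrogenase type 1, which regenerates active corticosterone inside the cell. In the RPKM values deposited by the authors, which are reads per kilobase of exon and per 1000000 reads, its mean was 50.8 over the 10 mice. Mt2 (22.7 RPKM), Mt1 (22.4 RPKM), Nr3c1 (18.1 RPKM) and Tsc22d3 (15.5 RPKM) came next, with overlapping ranges over mice. The annotated exons of Mt1 cover all 1246 bases of its gene, although it had 119 to 420 reads across exon junctions. The place of Mt1 in the order depends on that annotation. Zbtb16 had 11.1 RPKM, Dusp1 7.46 RPKM, Fkbp5 7.30 RPKM and Sgk1, the lowest, 3.78 RPKM. In F0 CD-fed mice the order began with Hsd11b1 (74.3 and 91.6 RPKM) and Mt2 (27.8 and 58.5 RPKM). In F1 offspring of CD fathers Mt2 had rank 5, at 9.42 to 19.6 RPKM, a range that overlapped those of Mt1, Nr3c1 and Tsc22d3.

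The genes lie apart in the mouse genome (mm10) except for the neighbours Mt2 (chr8:94172664-94173568) and Mt1 (chr8:94179082-94180327), small metal-binding proteins that zinc and glucocorticoids both induce. Fkbp5 (chr17:28399095-28517524), Zbtb16 (chr9:48654297-48836222), Sgk1 (chr10:21882184-21999903), Tsc22d3 (chrX:140539528-140600659) and Dusp1 (chr17:26505590-26508519) are each at a place of their own, where Fkbp5 alone overlaps another listed gene, a small non-coding one without reads. An antisense gene without exon reads, Gm45774, overlaps Mt2. Hsd11b1 (chr1:193221634-193264075) lies within the span of Lamb3 on the opposite strand. The share of Hsd11b1 exon reads counted as unique was 62.6% to 71.3% per mouse, and none of its intron reads was counted as unique, so its intron reads could not be assigned to it and are not interpreted. Hsd11b1 is still included in the numbers of genes tested on intron reads below, and it did not pass in any of those edgeR tests.

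Promoter sequence of RefSeq (GRCm38.p6) was matched for 7 of the 9 genes, and windows of 250 bases before each annotated start were searched on both strands. The glucocorticoid response element was searched as AGAACA followed after any 3 bases by TGT, and 0.368% of 32851 promoter windows held it. Of these 7 genes only Sgk1, a kinase that regulates ion transport and cell survival, held it, in 1 of its 6 annotated windows. There the element was matched 1 time on each strand, as inverted copies of AGAACA around 3 bases. The matches overlapped and covered 15 bases at chr10:21993701-21993715, which is 189 to 175 bases before that start. The metal response element was searched as TGCGCNC (in 12.5% of windows) and TGCACNC (in 10.4%). Mt2 held the first 1 time and the second 2 times, and Mt1 and Hsd11b1 each held the second 1 time. For Mt1 and Mt2, GENCODE also lists starts further downstream, and the bases before those were not searched as windows of their own, so the 2 genes are not compared here. Dusp1 held the cAMP response element TGACGTCA, which 1.55% of windows hold, 143 bases before its start. The letters AGAACA alone, present in 16.1% of windows, were found in 1 window of Tsc22d3 and in 3 of Sgk1. No element was found in the window of Fkbp5, which says only that these letters are not in it. The 4 windows below hold the elements named for glucocorticoids, metals and cAMP, with the matches in capitals.
Sgk1, chr10:21993640-21993889, plus strand: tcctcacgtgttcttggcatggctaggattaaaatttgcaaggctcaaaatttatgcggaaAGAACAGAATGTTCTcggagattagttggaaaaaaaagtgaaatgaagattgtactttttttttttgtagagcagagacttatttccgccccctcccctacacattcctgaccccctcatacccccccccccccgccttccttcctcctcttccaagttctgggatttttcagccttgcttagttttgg
Mt2, chr8:94172368-94172617, plus strand: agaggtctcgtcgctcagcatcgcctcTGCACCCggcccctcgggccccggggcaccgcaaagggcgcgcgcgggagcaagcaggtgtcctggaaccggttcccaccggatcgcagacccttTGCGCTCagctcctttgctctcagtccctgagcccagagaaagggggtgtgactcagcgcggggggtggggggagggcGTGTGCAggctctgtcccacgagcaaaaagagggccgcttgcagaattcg
Mt1, chr8:94178839-94179088, plus strand: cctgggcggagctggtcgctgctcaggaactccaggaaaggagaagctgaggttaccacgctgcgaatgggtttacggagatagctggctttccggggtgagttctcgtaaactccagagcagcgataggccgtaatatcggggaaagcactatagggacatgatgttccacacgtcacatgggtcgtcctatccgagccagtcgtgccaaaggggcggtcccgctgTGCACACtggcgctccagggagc
Dusp1, chr17:26508473-26508722, minus strand: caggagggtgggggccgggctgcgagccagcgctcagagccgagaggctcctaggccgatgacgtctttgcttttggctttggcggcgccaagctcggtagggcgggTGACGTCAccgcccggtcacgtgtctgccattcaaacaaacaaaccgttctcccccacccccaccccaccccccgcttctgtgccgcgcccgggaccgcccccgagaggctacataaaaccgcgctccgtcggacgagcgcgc

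**Figure D1:**
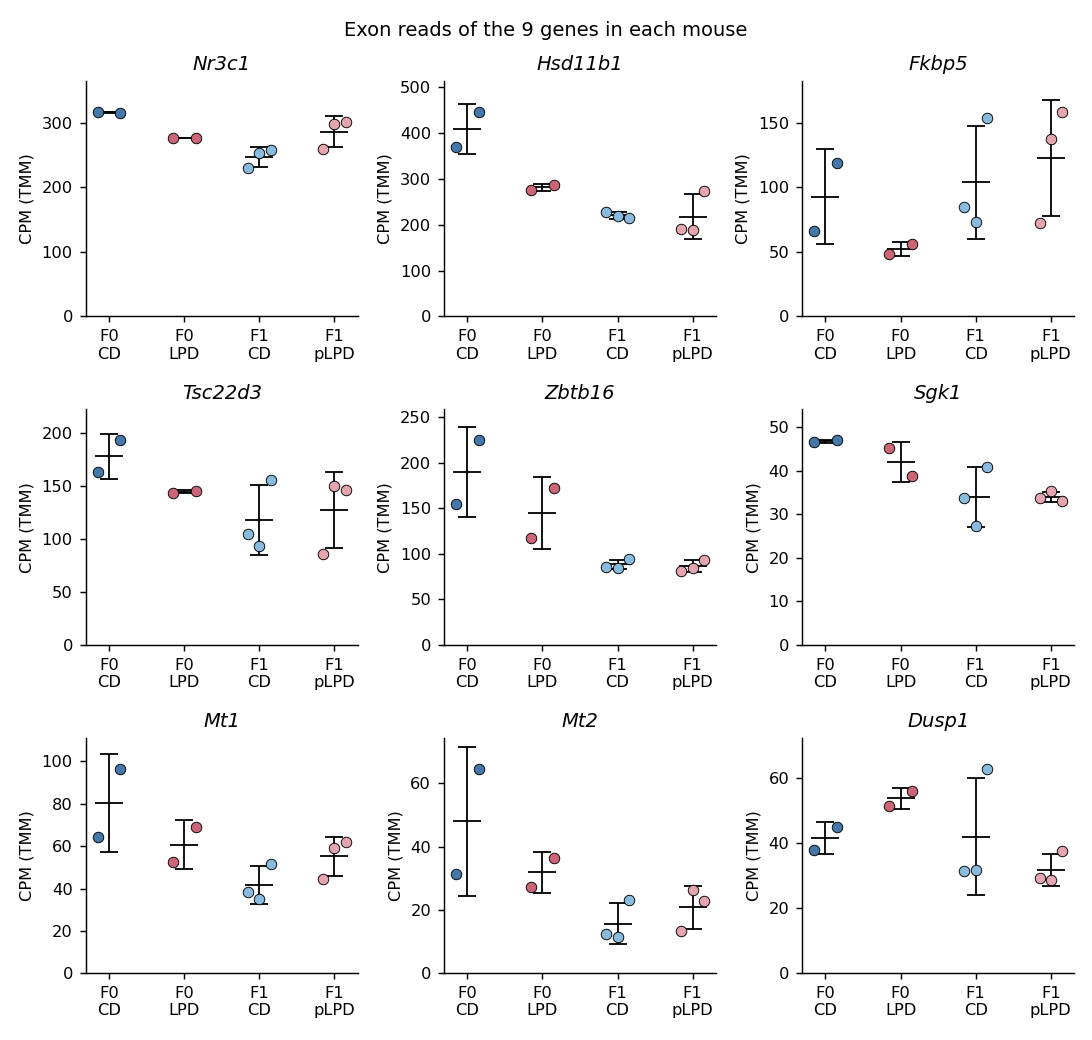
Exon reads of each of the 9 genes, in CPM of the TMM-normalized library, for the 10 mice. Points are mice, and bars give the mean and SD of each group (n = 2 in F0, n = 3 in F1). In F1 the groups overlap for every gene but Nr3c1, and 7 of the 9 genes are lower in each F1 CD mouse than in each F0 CD mouse.

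In F1 iWAT, none of the 9 genes was up- or down-regulated with the father's diet. The 2 metallothioneins had the largest positive values, Dusp1 had the largest negative value, and no adjusted p passed 0.05 in edgeR's quasi-likelihood test. For comparison, 1.17% of the 14049 genes tested passed. DESeq2 and limma also called none of the 9, and 2 genes, Nr3c1 and Mt1, had an unadjusted p under 0.05, both higher in pLPD offspring, where 15.3% of all genes did. The log2 fold changes of the 9 genes ranged from -0.39 to 0.43 with a median of 0.12, against a median of 0.01 over all genes.

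Nr3c1, the receptor itself, was at 229, 254 and 258 CPM in the offspring of CD fathers and at 259, 298 and 302 CPM in pLPD offspring. Every pLPD mouse was above every control mouse, but the lowest of the former and the highest of the latter nearly met. The log2 fold change was 0.22 (SE 0.09, adjusted p = 0.284 by edgeR). An exact two-sided permutation test gave p = 0.1, the smallest that 3 against 3 mice allow. Among all genes, 20.1% had groups that did not overlap in one direction or the other, and Nr3c1 was the only 1 of the 9. In the authors' RPKM, on which the median gene lay at -0.15, Nr3c1 gave 0.06 and its groups overlapped. Its intron reads gave nearly the same value as the exon counts, 0.21 (SE 0.09, adjusted p = 0.309 by edgeR), with groups that overlapped.

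Hsd11b1 was at 228, 219 and 214 CPM in the offspring of CD fathers and at 190, 190 and 274 CPM in pLPD offspring. The 3 control mice lay close together and within the range of the pLPD mice, and the log2 fold change was -0.01 (SE 0.13, adjusted p = 0.983 by edgeR).

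Fkbp5, an immunophilin that lowers the receptor's affinity for hormone and is itself induced by it, was at 84.5, 73.1 and 154 CPM in the offspring of CD fathers and at 72.1, 137 and 158 CPM in pLPD offspring. Tsc22d3, which encodes the anti-inflammatory protein GILZ, was at 105, 93.5 and 156 CPM in the former and 85.7, 150 and 147 CPM in the latter. Both genes were high in 1 of 3 control mice and in 2 of 3 pLPD mice, and the 2 groups covered nearly the same range. Their log2 fold changes were 0.25 (SE 0.29, adjusted p = 0.733) and 0.12 (SE 0.22, adjusted p = 0.841) in edgeR's test.

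Zbtb16, a zinc finger transcription factor also known as PLZF, was at 85.5, 85.0 and 94.6 CPM in the offspring of CD fathers and 81.3, 85.0 and 93.8 CPM in pLPD offspring. Its log2 fold change was -0.02 (SE 0.09, adjusted p = 0.951 by edgeR), and no other of the 9 genes had so small an SE. Sgk1, whose promoter window holds the response element, was at 33.7, 27.3 and 41.0 CPM in the former and at 33.7, 35.4 and 33.0 CPM in the latter. The pLPD mice lay inside the range of the controls, with a log2 fold change of 0.01 (SE 0.14, adjusted p = 0.975 by edgeR).

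Mt1 was at 38.5, 35.0 and 51.7 CPM in the offspring of CD fathers and at 44.7, 59.1 and 62.0 CPM in pLPD offspring. Mt2 was at 12.6, 11.5 and 23.1 CPM in the former and at 13.3, 26.4 and 22.8 CPM in the latter. The groups overlapped for both genes through control mouse 3, the highest of its group. The log2 fold changes were 0.42 (SE 0.16, adjusted p = 0.239) for Mt1 and 0.43 (SE 0.29, adjusted p = 0.519) for Mt2 in edgeR's test. Without control mouse 3, Mt1 gave 0.60 with an adjusted p of 0.0431 in edgeR's test. Without any filter on low counts it gave 0.42 with an adjusted p of 0.0461.

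Dusp1, a phosphatase that switches off MAP kinases and answers to stress signals as well as to glucocorticoids, was at 31.6, 31.7 and 62.9 CPM in the offspring of CD fathers and at 29.2, 28.6 and 37.6 CPM in pLPD offspring. One control mouse stood far above the other 5 mice. The log2 fold change was -0.39 (SE 0.24, adjusted p = 0.476 by edgeR), and without that mouse it was 0.01.

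In F0 iWAT, 8 of the 9 genes had lower mean levels in LPD-fed than in CD-fed mice and Dusp1 had a higher one, but none passed an adjusted p of 0.05 in edgeR's quasi-likelihood test. Of all 14581 genes tested, 2.50% passed. At an unadjusted p under 0.05, Hsd11b1, Fkbp5 and Tsc22d3 were lower and Dusp1 was higher, 4 of 9 genes beside 15.7% of all genes. The median log2 fold change of the 9 was -0.39 and that of all genes 0.00. Both LPD-fed mice were below both CD-fed mice for Nr3c1, Hsd11b1, Fkbp5, Tsc22d3 and Sgk1, as 23.6% of all genes were, and above them for Dusp1, as 22.8% of all genes were. With 2 mice against 2, an exact permutation test cannot give less than 0.3333.

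Hsd11b1 came closest to the threshold. It was at 370 and 447 CPM in CD-fed mice and at 276 and 287 CPM in LPD-fed mice, a log2 fold change of -0.54 (SE 0.12, adjusted p = 0.0528 by edgeR). The groups were apart by more than the spread within either. DESeq2 called it lower (adjusted p = 0.00663), as did the likelihood ratio test of edgeR (adjusted p = 0.00192), and leaving out 1 mouse at a time gave values from -0.67 to -0.39 and adjusted p from 0.0618 to 0.326.

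Fkbp5 was at 66.5 and 119 CPM in CD-fed mice and at 48.5 and 55.8 CPM in LPD-fed mice. The CD-fed mice differed from each other more than the lower of them did from the LPD-fed mice. The log2 fold change was -0.83 (SE 0.23, adjusted p = 0.102 by edgeR), and without CD-fed mouse 1 it was -1.19 with an adjusted p of 0.00286. Tsc22d3 was at 163 and 193 CPM in CD-fed and 144 and 146 CPM in LPD-fed mice, with a log2 fold change of -0.30 (SE 0.10, adjusted p = 0.193 by edgeR). Neither gene's groups overlapped.

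Nr3c1 was at 317 and 316 CPM in CD-fed mice and at 276 and 277 CPM in LPD-fed mice. The mice of a group were almost equal, and the log2 fold change was -0.19 (SE 0.09, adjusted p = 0.366 by edgeR). Sgk1 was at 46.6 and 47.1 CPM in CD-fed and 45.3 and 38.7 CPM in LPD-fed mice, a log2 fold change of -0.15 (SE 0.10, adjusted p = 0.545 by edgeR). Of the 2 LPD-fed mice, 1 was close to the CD-fed mice.

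Zbtb16 was at 155 and 225 CPM in CD-fed and 117 and 173 CPM in LPD-fed mice, with overlapping groups and a log2 fold change of -0.39 (SE 0.20, adjusted p = 0.411 by edgeR). Mt1 was at 64.1 and 96.6 CPM in the former and 52.5 and 69.0 CPM in the latter. Mt2 was at 31.3 and 64.6 CPM in the former and 27.3 and 36.5 CPM in the latter. In these 3 genes, and in Fkbp5, CD-fed mouse 2 stood above the other 3 mice. The log2 fold changes were -0.41 (SE 0.19, adjusted p = 0.343) for Mt1 and -0.60 (SE 0.29, adjusted p = 0.360) for Mt2 in edgeR's test. Without CD-fed mouse 1, Mt2 gave -1.02 (adjusted p = 0.0172 by edgeR), and without CD-fed mouse 2 it gave 0.02.

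Dusp1 went the other way, at 38.1 and 45.1 CPM in CD-fed and 51.5 and 56.0 CPM in LPD-fed mice. Its log2 fold change was 0.37 (SE 0.11, adjusted p = 0.123 by edgeR). Cell type markers stood beside these values. All 6 skeletal muscle markers had negative log2 fold changes in F0, and 3 passed the test as lower in LPD-fed mice. Of 4 fibroblast and progenitor markers, 3 had negative values and 1 a positive one, and 1 passed as lower. Dcn was at 813 to 971 CPM in CD-fed and 571 to 587 CPM in LPD-fed mice. All 6 adipocyte and all 6 lymphocyte markers had positive values, and 1 lymphocyte marker passed as higher. No macrophage or endothelial marker passed. The part of these cells in the F0 values was not tested.

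**Figure D2:**
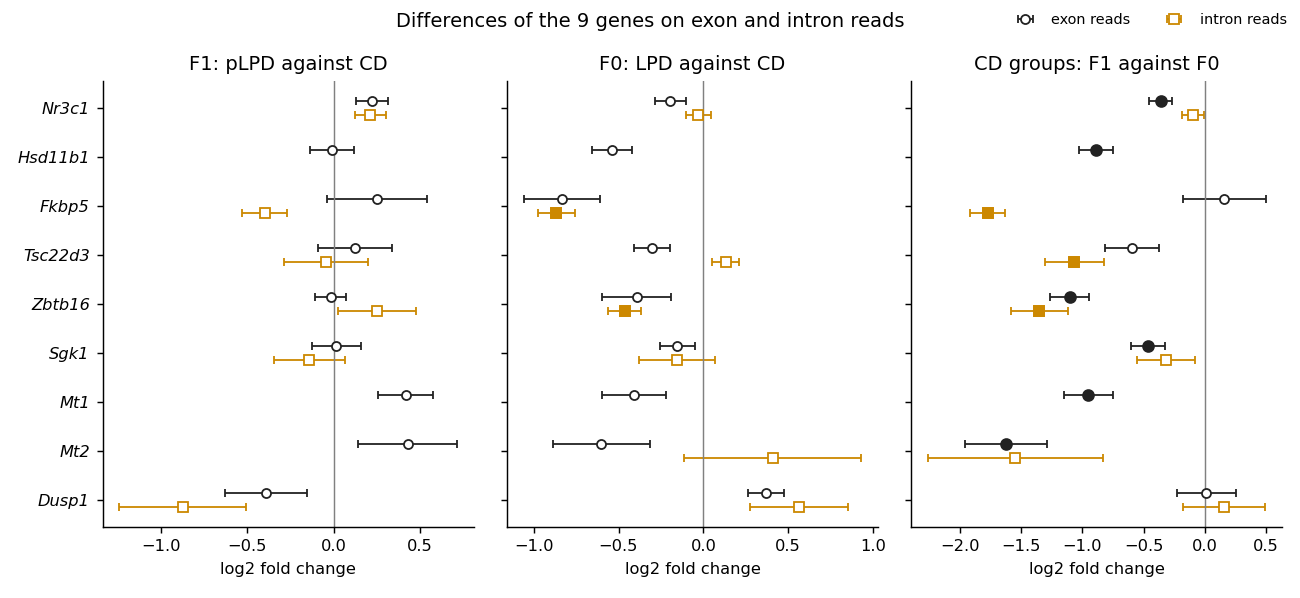
Log2 fold changes and their SE from edgeR for the 9 genes on exon reads (circles) and intron reads (squares), for pLPD against CD in F1, LPD against CD in F0, and F1 CD against F0 CD mice. Filled symbols passed an adjusted p of 0.05. Hsd11b1 intron reads, and genes with too few intron reads to test, are left out. Fkbp5 and Zbtb16 pass on intron reads in F0, and the right panel holds most of the filled symbols.

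Intron reads, which come largely from transcripts not yet spliced, gave a readout separate from the exon reads. In F0, Fkbp5 and Zbtb16 were down-regulated in LPD-fed mice on intron reads, 2 of the 8 genes tested, where 2.12% of 14334 genes were called lower. Fkbp5 had 579 and 718 intron CPM in CD-fed mice and 335 and 372 intron CPM in LPD-fed mice. The groups were well apart, with a log2 fold change of -0.87 (SE 0.11, adjusted p = 0.00235 by edgeR), nearly the value on exon reads. Leaving out each mouse in turn kept it past the threshold, between -1.01 and -0.70.

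Zbtb16 had 1476 and 1760 intron CPM in CD-fed and 1119 and 1215 intron CPM in LPD-fed mice. On intron reads its groups did not overlap, as for 24.3% of all genes in this direction, in contrast to its exon reads. The log2 fold change was -0.46 (SE 0.10, adjusted p = 0.0296 by edgeR). Without LPD-fed mouse 1 the adjusted p was 0.153, and without LPD-fed mouse 2 it was 0.0635, both by edgeR. Tsc22d3 had 243 and 269 intron CPM in CD-fed and 274 and 284 intron CPM in LPD-fed mice, so both LPD-fed mice were higher on introns and lower on exons. Of all genes, 21.4% had both LPD-fed mice higher on introns. The log2 fold change of Tsc22d3 on intron reads was 0.13 (SE 0.08, adjusted p = 0.507 by edgeR).

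In F1, none of the 7 genes tested passed on intron reads with edgeR or DESeq2, where 0.424% of 13456 genes passed with edgeR. At an unadjusted p under 0.05, Nr3c1 was higher and Fkbp5 and Dusp1 were lower in pLPD offspring, 3 of 7 genes beside 13.8% of all genes. Fkbp5 had 192, 170 and 208 intron CPM in the offspring of CD fathers and 111, 156 and 165 intron CPM in pLPD offspring. Every pLPD mouse was below every control mouse on introns, as was so for 9.71% of all genes, although 2 pLPD mice were among the highest on exons. The log2 fold change on intron reads was -0.40 (SE 0.13, adjusted p = 0.199 by edgeR), against 0.25 on exon reads. Dusp1, on few intron reads (11 to 45 per mouse), gave -0.87 (SE 0.37, adjusted p = 0.319 by edgeR). The higher share of intron reads in all pLPD libraries stands beside these values, and its part in them was not tested.

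The test of the difference itself, whether the effect of the father's diet in F1 differed from that of the mouse's own diet in F0, passed for none of the 9 genes on exon reads with edgeR, DESeq2 or limma, where 1.25% of 15111 genes passed with edgeR. Of the 9 interaction terms 8 were positive, which means more positive with pLPD in F1 than with LPD in F0. At an unadjusted p under 0.05 there were 4 positive genes, Nr3c1, Hsd11b1, Fkbp5 and Mt1, and 1 negative gene, Dusp1, beside 12.5% of all genes. Nr3c1 had an interaction of 0.41 on the log2 scale (SE 0.13, adjusted p = 0.182), Mt1 of 0.82 (SE 0.29, adjusted p = 0.223), Fkbp5 of 1.08 (SE 0.48, adjusted p = 0.380) and Dusp1 of -0.77 (SE 0.34, adjusted p = 0.373), all by edgeR. On intron reads none of 8 genes passed with edgeR or DESeq2, against 1.28% of 14823 genes with edgeR, and 2 positive and 1 negative had an unadjusted p under 0.05, beside 12.4% of all genes. Without pLPD mouse 1, Zbtb16 passed on intron reads (1.01, adjusted p = 0.00597 by edgeR). The 2 diet comparisons differ in who ate the diet, in age and in library set, which cannot be told apart.

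The clearest differences in these genes were between the CD mice of the 2 generations. Of the 9 genes, 6 were lower in F1 offspring of CD fathers than in CD-fed F0 mice, and none was higher. Among 15111 genes, 18.9% passed in either direction and 8.78% were lower. Each F1 CD mouse was below each F0 CD mouse for 7 of the 9 genes, as was so for 24.7% of all genes. Generation, age and library set coincide here and cannot be told apart. All 6 muscle markers passed as lower in F1 too. Of 6 adipocyte markers, 3 passed as lower in F1 and none as higher, and all 6 had negative values (median -0.43). Of 4 fibroblast and progenitor markers, 1 passed as higher and 1 as lower in F1, and of 3 epithelial markers tested, 2 passed as higher. Among 4 endothelial markers 1 passed as higher, and no lymphocyte or macrophage marker passed. The part of these cells in the result was not tested.

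Mt2 was lowest relative to F0, with 31.3 and 64.6 CPM in F0 and 11.5 to 23.1 CPM in F1, a log2 fold change of -1.62 (SE 0.33, adjusted p = 0.00495 by edgeR). Mt1 gave -0.95 (SE 0.20, adjusted p = 0.00552), Zbtb16 -1.11 (SE 0.16, adjusted p = 0.000570) and Hsd11b1 -0.89 (SE 0.14, adjusted p = 0.000946) in edgeR's test. Over the 9 alternative fits with all mice, unique exon reads among them, Hsd11b1 lay between -1.01 and -0.72 and passed in each. Smaller differences were found for Sgk1, at -0.46 (SE 0.14, adjusted p = 0.0341), and for Nr3c1, at -0.36 (SE 0.09, adjusted p = 0.0182), by edgeR. The receptor was thus among those called, and its difference was the smallest of the 6. Tsc22d3 gave -0.60 (SE 0.22, adjusted p = 0.0775), Fkbp5 0.16 (SE 0.34, adjusted p = 0.786) and Dusp1 0.01 (SE 0.24, adjusted p = 0.979) by edgeR. Without F0 CD-fed mouse 2 only Hsd11b1 and Zbtb16 passed, with Mt1 at -0.62 (adjusted p = 0.135) and Mt2 at -1.01 (adjusted p = 0.136) by edgeR. Nr3c1 also missed the threshold without F0 CD-fed mouse 1 or F1 CD mouse 1, and Sgk1 without either of these or F1 CD mouse 2, whereas Tsc22d3 passed without F1 CD mouse 3 (adjusted p = 0.00978) or pLPD mouse 1 (adjusted p = 0.0238) by edgeR.

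Fkbp5 did not pass between the CD groups on exon reads, but it did on intron reads. Its intron CPM were 579 and 718 in F0 and 192, 170 and 208 in F1, a log2 fold change of -1.77 (SE 0.14, adjusted p = 4.5e-06 by edgeR). Counted per exon read, Fkbp5 had 3.89 to 5.88 intron reads in the 4 F0 mice and 0.639 to 1.48 in the 6 F1 mice. Its intron change was -1.93 relative to its exon change on the log2 scale, where the median gene had 0.01 and 42 of 13146 genes had a more negative value. Zbtb16 (-1.35, SE 0.23, adjusted p = 0.00169) and Tsc22d3 (-1.07, SE 0.24, adjusted p = 0.0103) were also lower in F1 on intron reads by edgeR, 3 of the 8 genes tested, where 6.72% of 14823 genes were lower. Zbtb16 kept 3.77 to 7.22 intron reads per exon read in all 10 mice, so its introns and exons were lower together. Tsc22d3 had 0.893 to 1.27 intron reads per exon read in F0 and 0.586 to 0.687 in F1, and without F0 CD-fed mouse 2 its adjusted p was 0.104 by edgeR.

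**Figure D3:**
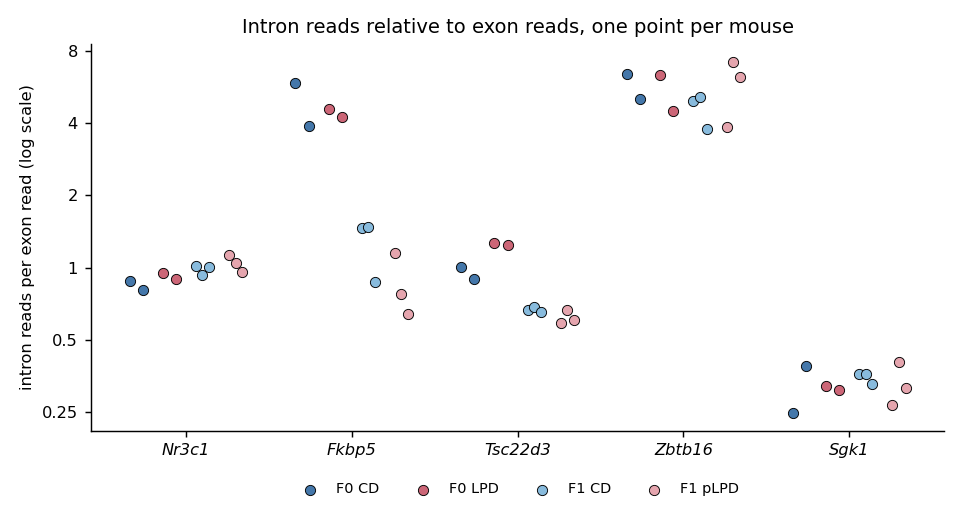
Intron reads per exon read (log scale) of the 5 genes with at least 59 intron reads in every mouse, leaving out Hsd11b1. Each point is a mouse. Fkbp5 lies between 3.89 and 5.88 in F0 and between 0.639 and 1.48 in F1, while Nr3c1, Zbtb16 and Sgk1 lie in like ranges in both generations.

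Within the groups, the same mice tended to be high for several of the response genes. Among the offspring of CD fathers, mouse 3 had the highest level of 8 of the 9 genes, the exception being Hsd11b1. Among pLPD offspring, mouse 1 was below its group mean for all 9. Both mice also stood furthest from the others of their groups over all genes compared, by the mean chi-square per gene against counting noise. It was 12.6 and 13.1 for control mouse 3 and 4.59 between the other controls. For pLPD mouse 1 it was 8.70 and 9.73, and 4.81 between the other pLPD mice. In F0, mouse 2 of the CD-fed and mouse 2 of the LPD-fed pair were each the higher for 8 of 9 genes. The share of all genes with these orders of mice was not counted. In F1 the log2 distances from the group mean ran from -0.68 to 0.64 for Fkbp5, from -0.57 to 0.61 for Mt2, from -0.33 to 0.65 for Dusp1 and from -0.52 to 0.43 for Tsc22d3. For Nr3c1 they ran from -0.14 to 0.08, and for Zbtb16 from -0.09 to 0.12.

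The genes with the most similar profile over the 10 mice, by the root mean square (RMS) difference of log2 CPM after each gene was centred on its mean, were sought among 14568 genes. For Mt1 the nearest was Klf9 (RMS 0.117), a transcription factor induced by glucocorticoids, followed by Timp3, an inhibitor of metalloproteinases. For Mt2 the nearest was Per1 (RMS 0.292), a clock gene that glucocorticoids also induce, followed by Gstt1, a glutathione transferase. Klf9 was at 93.4, 89.0 and 145 CPM in the offspring of CD fathers and at 118, 130 and 150 CPM in pLPD offspring. Per1 was at 48.8, 36.8 and 83.2 CPM in the former and at 61.2, 96.8 and 93.8 CPM in the latter. Both were highest in control mouse 3 and lowest of their groups in control mouse 2 and pLPD mouse 1, as were Mt1 and Mt2. The metallothioneins were near each other as well, Mt1 being number 11 of all genes in likeness to Mt2.

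For Fkbp5 the nearest gene was Prodh (RMS 0.220), which encodes proline dehydrogenase, at 31.1 and 51.2 CPM in CD-fed and 20.8 and 19.8 CPM in LPD-fed F0 mice. Prodh was down-regulated with LPD in F0 (log2 fold change -1.03, SE 0.21, adjusted p = 0.0448) and its interaction passed (1.53, SE 0.33, adjusted p = 0.0436), both by edgeR. The second was Zfp503. Tsc22d3 was nearest to Tspan4 and Il34, Zbtb16 to Tacc2 and Plxdc2, Hsd11b1 to Gstm1 and Rgma, Sgk1 to Alms1 and Zfp703, Nr3c1 to Rbmx and Pold2, and Dusp1 to Cd300ld and Acvr1. Tsc22d3 was number 37 in likeness to Mt1, and Hsd11b1 number 39 in likeness to Zbtb16. The profile of Fkbp5 had no other of the 9 genes closer than number 3953. These likenesses are descriptions over 10 mice that share libraries, with no test.

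**Figure D4:**
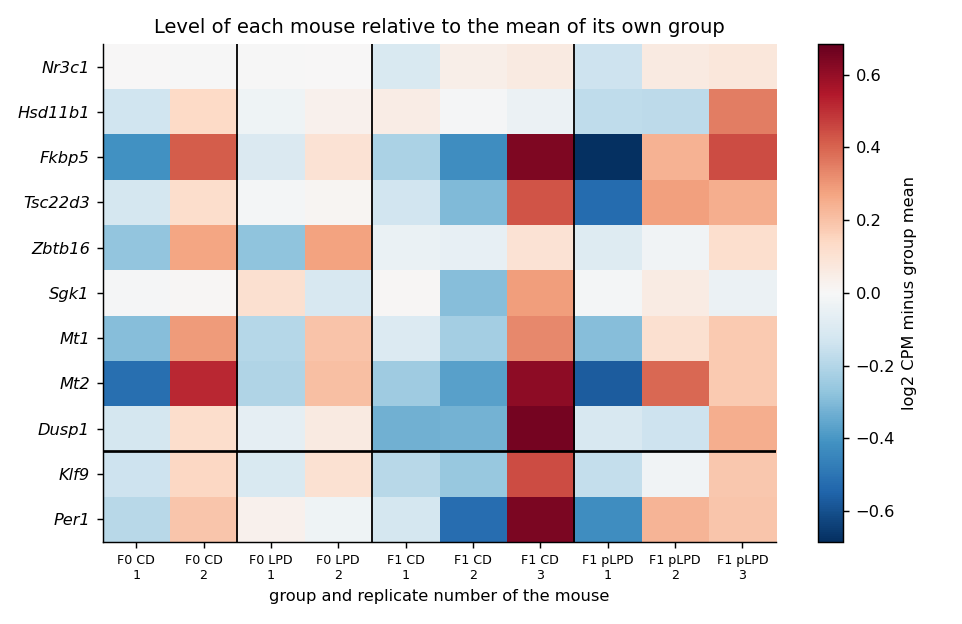
Distance of each mouse from the mean of its own group (log2 CPM) for the 9 genes and for Klf9 and Per1, the genes nearest to Mt1 and Mt2. Columns are mice, and red is above and blue below the group mean. CD mouse 3 of F1 and CD mouse 2 of F0 are above the mean for 8 of the 9 genes, and pLPD mouse 1 is below it for all 9.

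Clock genes varied between the F1 mice in a similar way. The median distance of 14 clock genes from the group mean was -0.23, -0.52 and 0.77 on the log2 scale in the 3 offspring of CD fathers and -0.33, 0.08 and 0.23 in the 3 pLPD offspring, with the same mice high and low as for Fkbp5. In F0 it was -0.11 and 0.11 in CD-fed and 0.08 and -0.08 in LPD-fed mice, so in the LPD-fed pair it ran against the 9 genes. In F1, 10 of the 14 clock genes had a positive log2 fold change with pLPD (median 0.41), and none passed. Arntl and Npas2, which drive the clock, gave -1.24 (adjusted p = 0.126) and -2.24 (adjusted p = 0.0996) by edgeR. In F0, Tef (-0.64, adjusted p = 0.0414), Per2 (-0.64, adjusted p = 0.0464) and Per3 (-0.59, adjusted p = 0.0436) were down-regulated with LPD by edgeR, none was up-regulated, and the median over the 14 was -0.48. The part of the clock genes in the values of the 9 genes was not tested, and the hour of tissue collection is not given in the sources used here.

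Other genes known to respond to glucocorticoids were taken from a list of 31, all of which could be tested. In F1, Sult1a1, a sulfotransferase, was up-regulated in pLPD offspring (log2 fold change 0.53, SE 0.11, adjusted p = 0.0448 by edgeR) and no other passed, with a median of 0.01 over the list. In F0, 5 were up-regulated and 3 down-regulated with LPD, and 22 of the 31 had negative values (median -0.12). Pdk4, the kinase that restrains pyruvate oxidation, rose from 100.1 to 400.0 CPM on average (log2 fold change 2.00, SE 0.18, adjusted p = 0.00223 by edgeR). Rasd1, a small GTPase first found as induced by dexamethasone, rose by 1.98 (SE 0.18, adjusted p = 0.00223) and the cell cycle inhibitor Cdkn1a by 1.17 (SE 0.19, adjusted p = 0.0191), whereas Fam107a was lower at -1.43 (SE 0.21, adjusted p = 0.0166), all by edgeR. The other 2 genes called lower, named after their values were seen, were Errfi1 (-1.10, SE 0.12, adjusted p = 0.00501), an inhibitor of growth factor receptor signalling, and the transcription factor Klf15 (-0.81, SE 0.16, adjusted p = 0.0400), by edgeR. The other 2 called higher, also named afterwards, were Angptl4 (1.02, SE 0.15, adjusted p = 0.0179) and Cebpb (0.55, SE 0.09, adjusted p = 0.0186), by edgeR.

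Immediate early genes, which respond within minutes to stress signals as Dusp1 does, were taken from a list of 19. In F0, 4 were up-regulated with LPD and none down-regulated, 16 had positive values, and the median was 0.46, beside 0.37 for Dusp1. Fos (1.36, adjusted p = 0.0243), Jun (0.89, adjusted p = 0.00373), Cyr61 (0.83, adjusted p = 0.0186) and Btg2 (0.58, adjusted p = 0.0189) were those called by edgeR. In F1 none passed, 13 had negative values and the median was -0.17, beside -0.39 for Dusp1, with Maff at -1.38 (adjusted p = 0.0683) and Cyr61 at -0.74 (adjusted p = 0.0816) by edgeR.

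Genes of the receptor complex, its cofactors and steroid metabolism were taken from a list of 21. In F0, 1 of 19 tested was up-regulated with LPD, the chaperone Hsp90aa1 (log2 fold change 0.52, SE 0.09, adjusted p = 0.0260 by edgeR), and the median was -0.04. In F1 none of 20 passed. The 2 with the largest values were Hsd11b2, the enzyme that inactivates corticosterone, at -0.46 (adjusted p = 0.683) and a mean of 1.63 CPM, and Abcb1b, a drug and steroid exporter, at 0.41 (adjusted p = 0.307), both by edgeR. Among metal response genes other than Mt1 and Mt2, none of 8 tested passed in either generation. Gclm and Hmox1 gave -0.48 (adjusted p = 0.0512) and -0.48 (adjusted p = 0.314) in F1, and Slc30a1 and Hmox1 gave 0.27 (adjusted p = 0.237) and 0.10 (adjusted p = 0.683) in F0, by edgeR. The metal response list had medians of -0.05 in F1 and -0.04 in F0. Mt1 and Mt2 had values of 0.42 and 0.43 in F1 and -0.41 and -0.60 in F0. The part of metals in these values was not tested.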

How the data were processed

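The authors sequenced iWAT RNA of 10 mice after rRNA depletion with a directional kit and used CLC Genomics Workbench for mapping, with mm10 as the genome. The annotation release and the strand and multi-mapping settings are not given in the sources used here. For each mouse they deposited unnormalized counts for each gene (exon reads, intron reads and all reads), and RPKM values. Total exon reads were used here unless stated, and deposited RPKM for levels between genes and as an alternative scale. The 9 genes, the gene lists and most tests were chosen with earlier results of these data known, and the intron comparisons between generations were added after seeing these data.

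Counts were tested in R 4.3.3 with edgeR 4.0.16 (filterByExpr, TMM, quasi-likelihood F test, two-sided, Benjamini-Hochberg adjustment over all genes tested, threshold 0.05). F1 and F0 were each fitted alone, and the interaction and the CD groups in 1 fit of all 10 libraries. An SE is the size of the log2 fold change over the root of the F statistic. CPM are those of the TMM-normalized library, and 0.5 was added for exact permutation tests and likeness. For each list and diet comparison, up to 4 genes past the threshold are named, or else the 2 with the largest values at a mean of at least 1 CPM, and for each of the 9 genes the 2 nearest in profile. Replicates of a group differed by more than counting noise, and each mouse is 1 sample.

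Alternatives were DESeq2 1.42.0, DESeq2's size factors, the likelihood ratio test, no filter, at least 10 counts in every library, unique exon reads, all reads on the gene, limma 3.58.1 on log2 RPKM with 0.1 added, a replicate block, all 4 groups in 1 fit, and fits without 1 mouse. The fits were tested on simulated data first.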

Additional observations from a re-analysis of the deposited data

How the results depend on the processing

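With 2 or 3 mice per group, 1 mouse often decided a value. When each mouse was left out in turn, the number of the 9 genes called on exon reads ranged from 0 to 1 up-regulated in F1, from 0 to 2 down-regulated in F0 and from 2 to 7 lower in F1 CD than in F0 CD mice. On intron reads it ranged from 1 to 2 down-regulated in F0, from 0 to 1 positive for the interaction and from 2 to 3 lower in F1 CD mice. Directions changed for the values whose ranges follow. Some were not near 0 with all mice, such as Dusp1 in F1 (-0.39) and Mt2 in F0 (-0.60 on exon reads and 0.41 on intron reads). The ranges on exon reads were -0.21 to 0.081 for Hsd11b1, -0.022 to 0.37 for Tsc22d3, -0.080 to 0.034 for Zbtb16, -0.12 to 0.17 for Sgk1 and -0.56 to 0.014 for Dusp1 in F1, -1.02 to 0.025 for Mt2 in F0, and -0.24 to 0.64 for Fkbp5 and -0.40 to 0.18 for Dusp1 between the CD groups. On intron reads they were -0.21 to 0.25 for Tsc22d3 and -0.34 to 0.056 for Sgk1 in F1, -0.060 to 0.0020 for Nr3c1, -0.47 to 0.26 for Sgk1 and -0.15 to 1.40 for Mt2 in F0, -0.34 to 0.13 for Tsc22d3 and -0.39 to 0.34 for Sgk1 for the interaction, and -0.64 to 0.10 for Sgk1 and -0.13 to 0.36 for Dusp1 between the CD groups. Without a filter on low counts, calls rose to 1 up-regulated gene in F1, 1 up-regulated and 5 down-regulated in F0, and 4 positive and 1 negative for the interaction on exon reads, and to 1 down-regulated gene in F1 and 2 positive for the interaction on intron reads. In F0 on exon reads, 2 genes were down-regulated with the likelihood ratio test, and 1 with DESeq2, with at least 10 counts in every library, with unique exon reads and with all reads on the gene. In F1, Hsd11b1 gave 0.062 on unique exon reads, and on all reads on the gene, introns included, Hsd11b1 gave 0.024, Fkbp5 -0.053, Zbtb16 0.24 and Sgk1 -0.037. With limma on log2 RPKM, Tsc22d3 gave -0.052 and Sgk1 -0.13 in F1. Between the CD groups, Fkbp5 gave -1.21 on all reads on the gene, which hold its intron reads, and Dusp1 gave -0.0038 without a filter and -0.18 with limma. On that scale the median gene lay at -0.15 in F1, -0.05 in F0 and -0.12 between the CD groups, and calls were 2 up and 115 down in F1 (20 and 144 with edgeR), 30 and 52 in F0 (172 and 192), 9 and 65 for the interaction (54 and 135) and 702 and 1432 between the CD groups (1531 and 1326). The cause of the other changes was not tested.

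Whether the replicate numbers of the labels pair the mice could not be decided. In F1, deviations of same-numbered mice correlated by 0.003 to 0.060, within the range for differently numbered mice (-0.079 to 0.072). In F0 the correlation was 0.063 for same-numbered and -0.063 for differently numbered mice. With so few F0 mice, these values must be equal in size and opposite in sign. With the replicate number as a block, 6 genes were down-regulated and 1 up-regulated in F0, where the block leaves almost no spread to test against, and 1 was positive for the interaction, Mt1 (0.80, adjusted p = 0.0481 by edgeR). Under the block Dusp1 gave -0.045 between the CD groups and Sgk1 -0.016 for the interaction on intron reads. Over all genes, the exon reads gave 164 calls in F1 (18 to 798 over the alternatives, 260 with the block), 364 in F0 (82 to 1391, the highest with the block), 189 for the interaction (19 to 890) and 2857 between the CD groups (793 to 3415). The intron reads gave 57 in F1 (5 to 677), 499 in F0 (289 to 1106), 189 for the interaction (61 to 726) and 1776 between the CD groups (596 to 2272).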

Other observations

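Inflammatory genes that glucocorticoids repress were taken from a list of 12, and none passed in either generation by edgeR. In F1, Tnf had a log2 fold change of 1.09 (adjusted p = 0.154) and Ccl2 of -0.53 (adjusted p = 0.688), with a median of -0.16 over the 6 tested. In F0, Ccl7 had 1.57 (adjusted p = 0.0993) and Ccl2 1.36 (adjusted p = 0.131), with a median of 0.23 over the 8 tested. Of the paralogues of the 9 genes, 16 were tested. Dusp10, a phosphatase related to Dusp1, was up-regulated with LPD in F0 (log2 fold change 0.70, SE 0.12, adjusted p = 0.0246 by edgeR), and so was Tsc22d2, a relative of Tsc22d3 (0.52, SE 0.09, adjusted p = 0.0257). In F1 no paralogue passed, and Dusp10 and Dusp4 had 0.37 (adjusted p = 0.0946) and 0.32 (adjusted p = 0.237). Between the CD mice of the generations, where 8.78% of all genes were lower and 10.1% higher in F1, 11 of the 31 other response genes were lower and 4 higher. Of 20 genes of the receptor complex and steroid metabolism, 9 were lower and 1 higher. Of the 14 clock genes, 6 were lower and 3 higher.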
